A study of Sus scrofa with 6 samples.

Results

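Ubiquitin-specific proteases (USPs) were taken from the table of normalized transcript abundance as every gene whose name is USP followed by a number, with a letter where the name has one. This gave 44 of 17678 genes, and 42 of them were among the 11986 genes tested, those whose values averaged 10 or more across the 6 libraries. USP18 and USP51 were below that limit. USP46 and USP33 stand in the table without a name and were therefore outside the rule. They were found through their Ensembl identifiers and are not counted among the members.

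Porcine MII oocytes were injected with siRNA, parthenogenetically activated and collected as 2-cell embryos 32 h after activation. The NC group received a non-specific negative control siRNA and the KD group received 3 siRNAs against SIN3A, a scaffold protein of histone deacetylase complexes. There were 3 replicates of 20 pooled embryos in each group, from oocytes of crossbred pigs matured in vitro. The parthenogenetic embryos of both groups carry only maternal chromosomes. SIN3A itself (ENSSSCG00000001880) had values of 37361, 33964 and 32404 in the NC libraries and 3271, 1079 and 4173 in the KD libraries, so 8.22% of the NC mean was left (log2 fold change -3.81, adjusted p = 8.45e-06, limma). The 6 libraries were estimated at 7800000 to 15700000 reads. Of 10 oocyte and early embryo markers 8 were found by name, all were tested, and their summed value was 31623 to 35337 in NC and 33320 to 37342 in KD libraries, led by BMP15, an oocyte growth factor. Of 11 cumulus and granulosa cell markers 9 were found by name, 3 passed the limit on low values, and their summed value was 801 to 962 in NC and 765 to 895 in KD libraries, most of it from VCAN, a matrix proteoglycan. None of these 9 was at 0 in all libraries, and their part in the results below was not tested.

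USPs are cysteine proteases that cut ubiquitin from proteins or from other ubiquitin molecules, and they form the largest family of deubiquitinating enzymes. By removing the tag they can spare a protein from the proteasome, end a signal or reset a histone mark. In oocytes and cleaving embryos, which live on stored maternal mRNA and protein, ubiquitin-dependent turnover is part of the passage from maternal to embryonic control. USP15, USP4 and USP11 are close paralogs that share a DUSP domain and ubiquitin-like domains beside the protease domain. USP15 is known for acting on the TGF-beta and SMAD pathway and for its association with the COP9 signalosome, USP4 for its work with the splicing factor SART3, and USP11 for its part in DNA repair with BRCA2.

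The coding sequence around the catalytic cysteine is shown for the 3 paralogs because it marks the active site they share and shows how far their transcripts differ at a place where the proteins are alike. Each window is 30 bases of the RefSeq coding sequence on Sscrofa11.1, written 5′ to 3′ on the gene's own strand, with the cysteine codon in capitals. The USP15 window lies at chr5:27037881-27037910 on the plus strand in exon 8, the USP4 window at chr13:31878872-31878901 on the minus strand in exon 8, and the USP11 window at chrX:41860104-41860133 on the plus strand in exon 8.
USP15: aacttgggaaatacaTGTttcatgaattca
USP4: aacctggggaacaccTGCttcatgaactct
USP11: aatctgggcaacacgTGCttcatgaactcg
The cysteine is codon 298 of 981 in USP15, codon 311 of 1032 in USP4 and codon 306 of 951 in USP11. Of the 30 bases, 7 differ between USP15 and USP4 and 8 between USP15 and USP11. Over the whole protein, 60.6% of aligned residues were identical between USP15 and USP4, 51.9% between USP15 and USP11 and 52.0% between USP4 and USP11. The RefSeq transcripts of the 3 genes shared no stretch of 31 bases, and the longest shared run was 18 bases, between USP15 and USP4. Among the 43 members with a RefSeq transcript, stretches of 31 bases were shared only by USP37 and USP45, USP51 and USP27X, and USP53 and USP54, with 4, 5 and 1 such stretches.

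USP15 (ENSSSCG00000000457, chromosome 5 from 26964380 to 27082549) was the only member whose abundance rose or fell past the test, and it rose in KD embryos. Its normalized values were 655, 529.6 and 537 in the NC libraries and 888, 953 and 831 in the KD libraries. Every KD library was above every NC library, and the KD mean was 155% of the NC mean. This is a log2 fold change of 0.64 when 1 is added to each value (standard error, SE, 0.12, 95% confidence interval, CI, 0.39 to 0.88), with an adjusted p = 0.0324 by limma over all genes tested. An exact two-sided permutation test gave p = 0.1, the smallest p that 3 libraries against 3 allow. The size of the rise was 0.58 to 0.74 when any library was left out, but the call depended on them: the adjusted p was 0.287 without NC replicate 2, 0.215 without NC replicate 3, 0.168 without KD replicate 1 and 0.287 without KD replicate 2. It was also 0.0546 after quantile normalization and 0.653 without the trend of variance with abundance, a setting in which no gene of the table was called by limma, although 622 had an unadjusted p below 0.05.

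USP4 (ENSSSCG00000011382, chromosome 13 from 31844780 to 31904418) had values of 103, 95.8 and 98.6 in NC and 85.4, 56.6 and 79.2 in KD libraries. All KD libraries were below all NC libraries, yet the difference did not pass the test (log2 fold change -0.44, SE 0.22, 95% CI -0.90 to 0.02, adjusted p = 0.997, limma). Without KD replicate 2, the lowest library, the log2 fold change was -0.26. USP11 (ENSSSCG00000012273, chromosome X from 41851534 to 41866357) had values of 470.1, 566 and 534 in NC and 550.4, 687 and 518 in KD libraries. These groups overlapped, and the log2 difference was 0.15 (SE 0.13, 95% CI -0.12 to 0.43, adjusted p = 0.997, limma). It was 0.03 without KD replicate 2, 0.08 without NC replicate 1 and 0.24 without KD replicate 3.

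**Figure D1:**
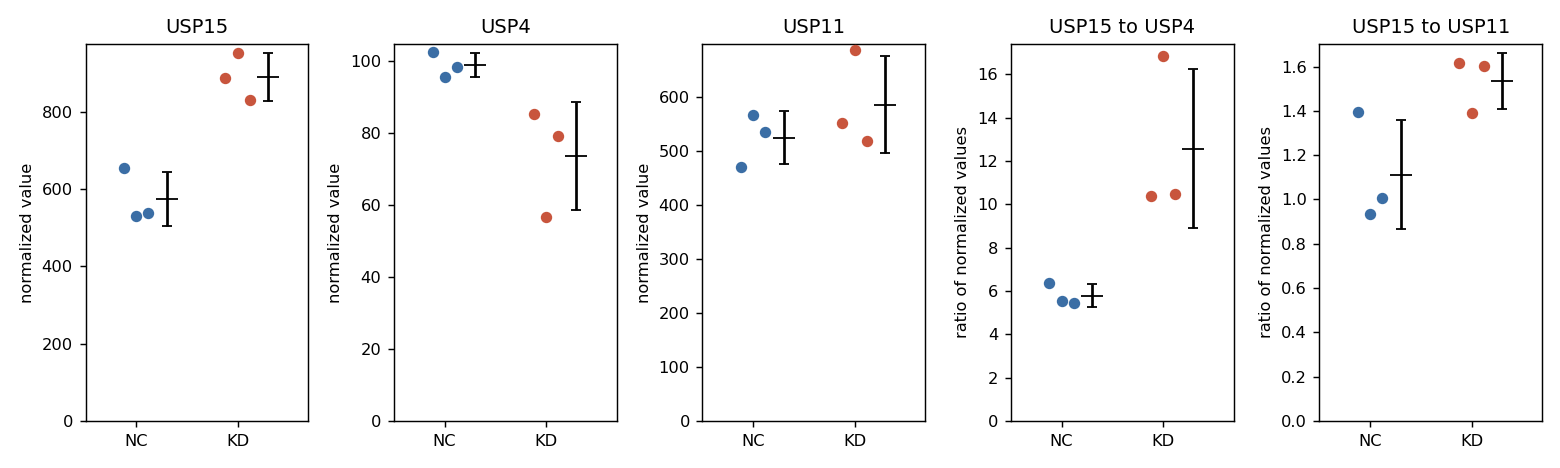
Normalized values of USP15, USP4 and USP11 and the ratios of USP15 to each paralog, with 1 point per library (NC blue, KD red) and the mean with its SD (n = 3) beside them; all vertical axes start at 0. The KD points of USP15 lie at 831 to 953, above the NC points at 529.6 to 655, and the 3 KD ratios of USP15 to USP4 lie above the 3 NC ratios.

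The ratio of the paralogs within a library compares their changes directly. It was not corrected for transcript length, so it does not rank their levels. The ratio of USP15 to USP4 was 6.39, 5.53 and 5.45 in NC and 10.4, 16.8 and 10.5 in KD libraries. The groups did not overlap, and the log2 ratio was higher by 1.08 in KD embryos (exact two-sided permutation p = 0.1, the smallest possible). The ratio of USP15 to USP11 was 1.39, 0.935 and 1.01 in NC and 1.61, 1.39 and 1.60 in KD libraries. Here NC replicate 1 reached the level of KD replicate 2, and the difference of 0.48 on the log2 scale gave an exact permutation p of 0.2.

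Divided by the length in kilobases of the longest RefSeq mRNA, USP15 made up 24.5 ± 3.78% of the summed level of the 3 paralogs in NC embryos and 31.8 ± 1.37% in KD embryos (SD, n = 3 each). The share was higher by 7.27 percentage points (exact permutation p = 0.1), and the rest was mostly USP11. The share itself depended on the gene model, since the longest USP15 mRNA has 9987 bases and the median USP15 mRNA 5057. That longest mRNA has 9 exons, while the USP15 model with the longest coding sequence has 22. The shares of 24.5% and 31.8%, the place of USP15 in the levels below and its GC content rest on the 9-exon mRNA. With that mRNA the NC mean of USP15 was 57.5 per kb, at rank 33 of 43 members, against 161 for USP11. Per kilobase of coding sequence the NC means were 195 for USP15 and 183 for USP11. With median lengths, a choice made after the values were seen, the share was 38.9% in NC and 47.8% in KD embryos. With coding lengths the share was 47.4% and 57.0%.

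Levels of different members were ordered per kilobase of the longest RefSeq transcript, available for 43 members. That of USP42 is a long non-coding RNA. In NC embryos the order was led by USP7 (2231 ± 227 per kb, SD, n = 3), which acts on MDM2 and p53 and in Polycomb complexes, and by USP22 (1526 ± 69.4), the histone H2B deubiquitinase of the SAGA complex. These were followed by USP36 (1117 ± 197), a nucleolar enzyme, USP44 (1013 ± 90.6), known from the mitotic checkpoint, and USP21 (913 ± 129). USP38 (787 ± 75.2), USP25 (756 ± 30.5) and USP1 (687 ± 31.3), the UAF1-dependent enzyme of FANCD2 and PCNA, completed the 8 highest. USP7 and USP22 did not overlap between NC libraries, nor did USP22 and USP36 or USP25 and USP1, while all other neighbours among the 8 did. The order depended on the gene model: per kilobase of coding sequence USP22 (4310.2) was above USP7 (3075), USP25 was at rank 11, and USP2 was among the 8 highest. The 8 held 57.7% to 60.1% of the summed per-kb level of the members in each library.

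At the other end stood USP4 (16.9 ± 0.581 per kb, SD, n = 3), USP12 (15.5 ± 1.96), USP3 (8.51 ± 0.900), USP49 (6.53 ± 1.60) and USP20 (4.07 ± 1.75). This order also depended on the gene model. Per kilobase of coding sequence USP12 (62.8) and USP3 (55.9) were above USP4 (31.9), and USP35 (44.5) was below USP12 and USP3. USP18, which removes the ubiquitin-like ISG15 from proteins, had normalized values of 3.84, 0 and 7.82 in NC and 0, 1.98 and 8.54 in KD libraries. USP51, at 1.04 to 8.53 in NC and 0.974 to 8.64 in KD libraries, was as low. The median NC level of the members was 161 per kb, against 60.3 for the 9802 tested genes with a RefSeq length, and 32 members were above that median. All members together made up 0.726% to 0.788% of the summed values of a library.

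**Figure D2:**
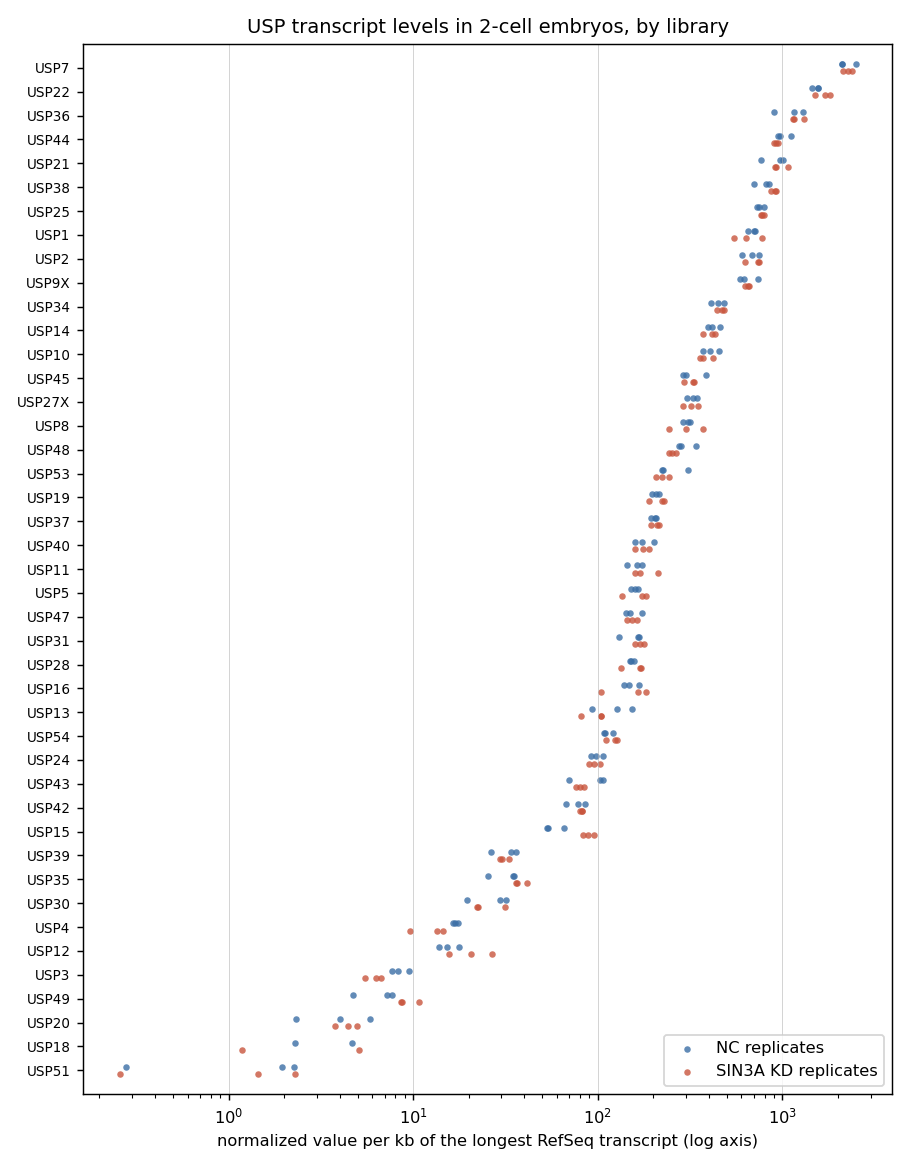
Normalized value per kilobase of the longest RefSeq transcript (log axis) for the 43 members with a length, ordered by their NC mean, with 1 point per library (NC blue, KD red). Values of 0, which occurred for USP18, are not drawn; levels run from USP7 at 2231 per kb to below 10 for USP3, USP49, USP20, USP18 and USP51, and only for a few genes do the colours separate.

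Across the family 1 member passed the test. With an adjusted p below 0.05, 1 of 42 members was called, against 0.159% of all genes tested (19 genes). It was higher in KD embryos, and 0.0584% of all genes were both called and higher in KD embryos. The family was chosen around USP15 with earlier results of these data known, so the presence of a called member was given beforehand. USP15 also counts in the shares that follow, which therefore do not test the family. At an unadjusted p below 0.05 there were 6 members, or 14.3%, against 4.61% of all genes, and 3 without NC replicate 1, NC replicate 2 or KD replicate 2. The groups did not overlap for 8 members, or 19.0%, against 9.79% of all genes. As many members had a positive as a negative log2 fold change, 21 each, with a median of 0.0093 against 0.0026 for all genes, and 34 of 42 lay within 0.25 of 0. Values are relative to the library, so a change of total mRNA per embryo cannot be told apart from none. Messenger RNA was captured by its poly(A) tail, so a change in tail length cannot be told apart from a change in amount.

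**Figure D3:**
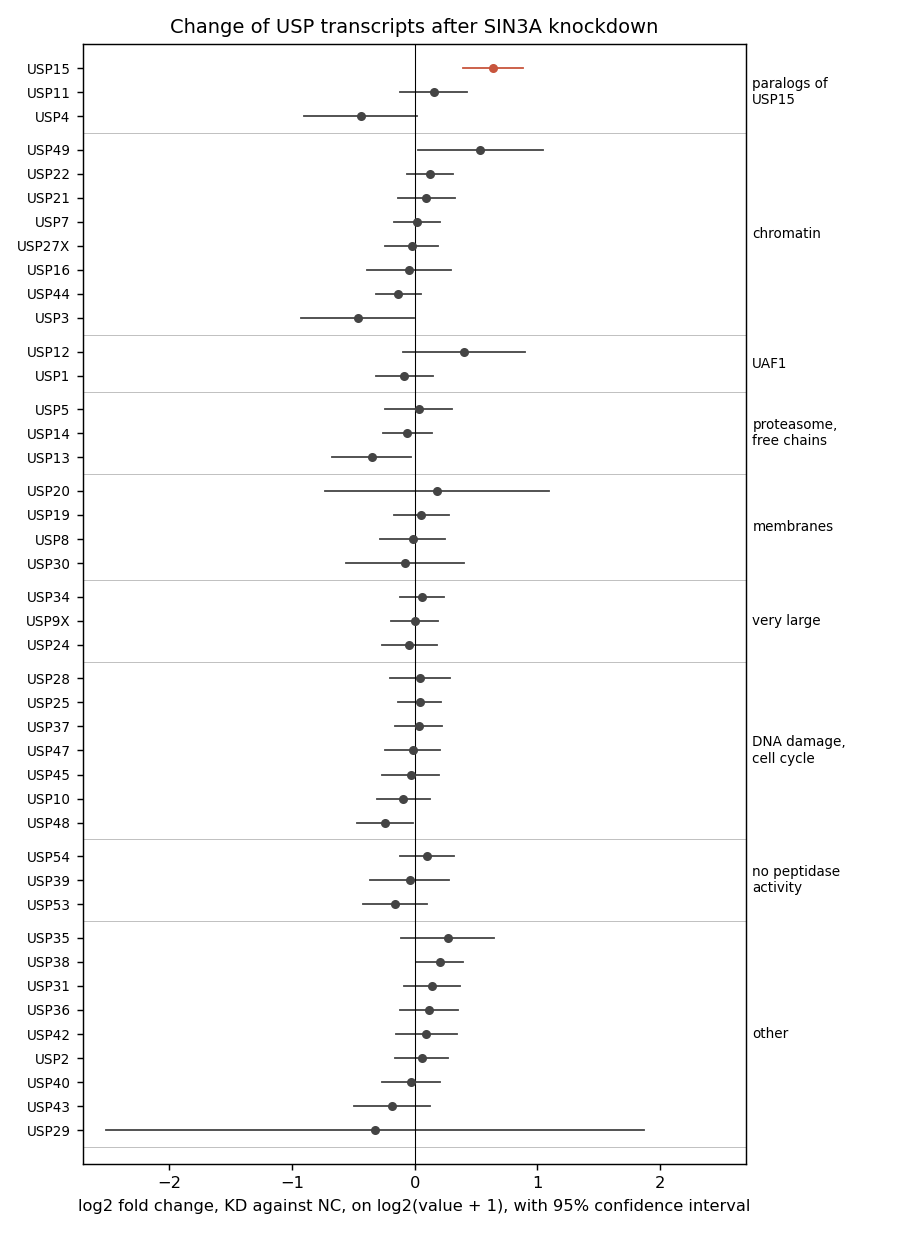
Log2 fold change, KD against NC, on the log2(value + 1) scale with 95% confidence intervals from limma for the 42 members tested, grouped by role; USP15, the only member with an adjusted p below 0.05, is red. The interval of USP15 runs from 0.39 to 0.88, and that of USP29 is the widest.

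Among the 8 tested members that act on chromatin or histone ubiquitin, limma called none, and 2 had an unadjusted p below 0.05. These were USP49 and USP3, and the share over all genes tested was 4.61%. USP49, a histone H2B deubiquitinase, had values of 44.9, 73.2 and 69.0 in NC and 81.8, 103 and 83.2 in KD libraries, which did not overlap (log2 fold change 0.53, SE 0.24, adjusted p = 0.997, limma; 0.32 without NC replicate 1). USP3, which acts on histone H2A, had values of 85.4, 97.5 and 79.3 in NC and 56.0, 68.3 and 64.7 in KD libraries, all lower (-0.47, SE 0.22, adjusted p = 0.997, limma). USP44 was also lower in every KD library, with 5809, 5046 and 4947 in NC and 4776, 4709.7 and 4899.9 in KD libraries, but by little (-0.13, SE 0.09; -0.06 without NC replicate 1). The abundant USP7 and USP22 had log2 fold changes of 0.02 and 0.13, and their groups overlapped.

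Of the enzymes activated by the WD-repeat protein UAF1, USP12 had values of 79.2, 68.7 and 61.7 in NC and 119.6, 92.6 and 70.3 in KD libraries. KD replicate 3 lay among the NC values, and the difference was 0.40 on the log2 scale (SE 0.23, adjusted p = 0.997, limma) and 0.21 without KD replicate 1. USP1 had a log2 fold change of -0.08, and the unnamed USP46, at 2355 in NC and 2289.7 in KD embryos, one of -0.04.

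USP13 and USP5, relatives of which USP5 takes apart free ubiquitin chains, were measured with the proteasome-bound USP14. USP13 had values of 1163, 965 and 711 in NC and 616, 792 and 790.3 in KD libraries. The groups overlapped through NC replicate 3, and the log2 fold change of -0.35 (SE 0.15) had an unadjusted p of 0.0359 and an adjusted p of 0.997 by limma. It was -0.19 without NC replicate 1, -0.23 without KD replicate 1 and -0.54 without NC replicate 3. USP5 and USP14 had log2 fold changes of 0.03 and -0.06.

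No member was called by limma, and 0 had an unadjusted p below 0.05, among those of endosomes, endoplasmic reticulum and mitochondria (USP8, USP19, USP20, USP30), whose log2 fold changes ran from -0.08 to 0.18. USP33 of this group, unnamed in the table, had 539 in NC and 491 in KD embryos. The very large enzymes USP9X, USP24 and USP34 lay between -0.04 and 0.06, and USP39, USP53 and USP54, annotated as lacking peptidase activity, between -0.16 and 0.10. Role groups did not share members, so USP1, USP7, USP11 and USP44, linked above to DNA repair, p53 or the mitotic checkpoint, were counted elsewhere. Of the 7 members grouped under DNA damage and the cell cycle, 6 lay within 0.10 of 0. The other, USP48, had values of 1312, 1091 and 1064 in NC and 1018, 935 and 968 in KD libraries, all lower (-0.24, SE 0.11, adjusted p = 0.997, limma; -0.15 without NC replicate 1).

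Among the remaining members, USP38 had values of 3882, 3356 and 4043 in NC and 4429, 4142 and 4374 in KD libraries (log2 fold change 0.20, SE 0.09, and 0.12 without NC replicate 2). USP35 had 108, 148 and 149 in NC and 156, 175 and 154 in KD libraries (0.27, SE 0.18, and 0.12 without NC replicate 1). In both genes every KD library was above every NC library, and both had an adjusted p of 0.997 by limma. USP29, an imprinted gene in other mammals, had values of 4.17, 32.2 and 3.41 in NC and 12.6, 27.3 and 0 in KD libraries, and its log2 fold change of -0.32 had a standard error of 1.04. Precision followed abundance: the standard error was 0.18 to 1.04 for the 8 members with a mean under 200, 0.10 to 0.16 for 12 members between 200 and 1000 and 0.08 to 0.13 for 22 members above.

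**Figure D4:**
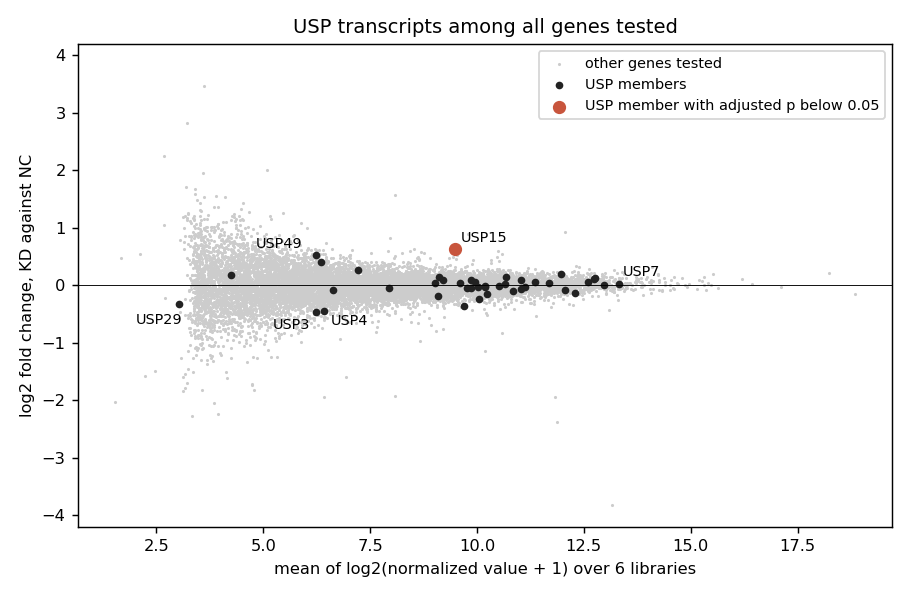
Log2 fold change, KD against NC, by mean log2(normalized value + 1) over the 6 libraries for all 11986 genes tested (grey), the USP members (black) and USP15 (red). Most members lie near 0, and the scatter of all genes widens at low abundance.

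Deubiquitinating enzymes of other families were taken from a list of 41 names, which held older names of some genes beside the current ones. Under these names 36 genes were found and 33 tested, and limma called none. Their log2 fold changes were positive for 10 and negative for 23, with a median of -0.06, against 6064 positive and 5922 negative over all genes tested. An unadjusted p below 0.05 was found for 1 of the 33, against 4.61% of all genes. It was that of BRCC3, a K63-specific enzyme of DNA repair complexes, at 63.6 ± 3.66 in NC embryos against 42.4 ± 9.71 in KD embryos (SD, n = 3 each, log2 fold change -0.60). MPND, of the same metalloprotease family as BRCC3, had a log2 fold change of 0.49. JOSD2, of the Josephin family, had one of -0.50, at 29.1 ± 20.6 in NC and 20.0 ± 12.0 in KD embryos (SD, n = 3 each).
Of 26 names of partners and substrates of USP15, 21 were tested and limma called none. An unadjusted p below 0.05 was found for 1 of the 21, REST, against 4.61% of all genes tested. There were 8 positive and 13 negative log2 fold changes and a median of -0.05, against 6064 positive and 5922 negative over all genes. The largest differences were those of KEAP1, the adaptor for NRF2 degradation (0.55, SE 0.34), and REST, a transcriptional repressor (0.54, SE 0.24). Of 12 cofactors of other USPs, 9 were tested and limma called none, with 0 at an unadjusted p below 0.05, the largest differences being -0.49 for G3BP1 and 0.29 for HGS.

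NC replicate 1 was the highest or the lowest NC library for 35 of 42 members (83.3%), against 73.7% of all genes tested, and NC replicate 3 was so for 30 members. Its deviation from the NC mean went with the GC content of the longest transcript, with a Pearson r of -0.53 across 41 members and -0.36 across 9802 genes, which are not independent replicates. NC replicate 3 deviated the other way about as strongly across the members, with an r of 0.54, and r was 0.11 for NC replicate 2. In the KD group it was 0.02 for replicate 1, 0.30 for replicate 2 and -0.32 for replicate 3. Across the 9802 genes r was 0.22 for NC replicate 2 and 0.18 for NC replicate 3. There it was 0.07 for KD replicate 1, 0.08 for KD replicate 2 and -0.14 for KD replicate 3. Deviations within a group sum to 0, so these values are not independent of each other. In GC classes set after the values were seen, NC replicate 1 was above both other NC libraries in 11 of 13 members under 42% GC, and below both in 9 of 12 members with at least 55%. USP15 is GC-poor at 36.7% in its longest transcript, and NC replicate 1 was its highest NC value. Without that library the log2 fold change of USP15 was 0.74 (adjusted p = 0.0108, limma), and USP15 was still the 1 member called.

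**Figure D5:**
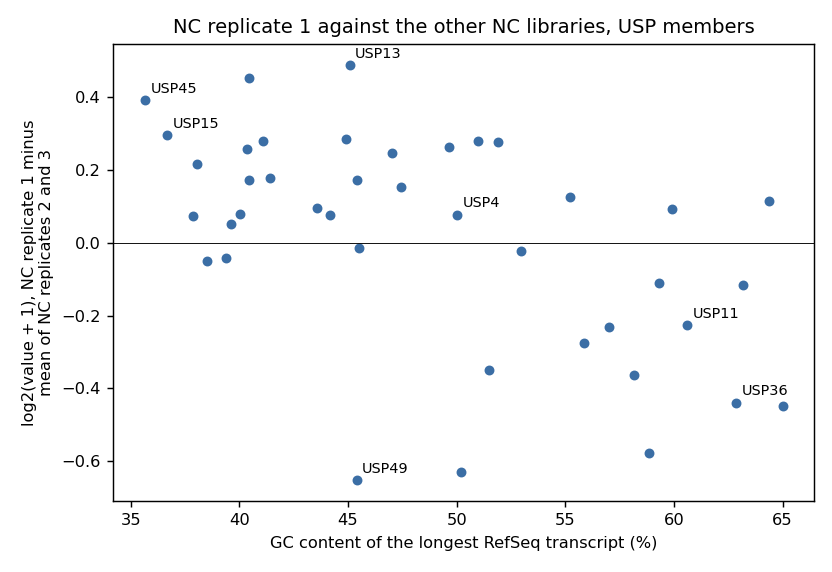
Log2(value + 1) of NC replicate 1 minus the mean of NC replicates 2 and 3 against the GC content (%) of the longest RefSeq transcript, with 1 point for each of 41 tested members. Members under 42% GC lie mostly above 0 and those of at least 55% mostly below.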

How the data were processed

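Messenger RNA of 3 NC and 3 KD pools of 2-cell embryos was isolated with oligo(dT) beads and sequenced. Per the labels, reads were assigned to Sscrofa11.1 with Salmon 0.14.1 and compared with DESeq2. The authors deposited 1 table of normalized signal values per gene, scaled between libraries and not for gene length. They are not raw counts, so no count test was run. Groups and replicate numbers came from the sample labels. The study calls the replicates independent without saying that each came from its own batch of oocytes, so p-values measure the spread between these libraries, which may be technical in part. The spike-in mRNAs were not used here.

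Genes with a mean of at least 10 were tested on log2(value + 1) with limma 3.58.1 in R 4.3.3 (lmFit, eBayes with a variance trend, group as the only term), with Benjamini-Hochberg adjustment and a threshold of 0.05. Fold changes on this scale understate those of low genes. Single values were compared by exact permutation over the libraries (Python 3.11.15, numpy 2.4.6, pandas 2.3.3), and the fit was tested on simulated data. Transcripts, lengths and sequences came from the RefSeq annotation of Sscrofa11.1, matched by symbol and read with pysam 0.24.0 and Biopython 1.88.

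Depth was estimated from the spacing of the low values, between 0.1 and 6. Fractions of a spacing describe the values about as well, so the largest spacing was taken that held at least 80% as many values as the best one. It held 64.9% to 73.0% of the low values within 0.05 of a whole multiple, so whole reads were not recovered and the depths are approximate.

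The members and gene lists were chosen with earlier results of these data known. Named are USP15, USP4 and USP11, members that were called, the 8 highest and 5 lowest per kb, the 5 largest rises and falls, those whose groups did not overlap, examples of each role, SIN3A, and the largest differences of other lists. Alternatives were a replicate block, leaving out each library, robust empirical Bayes, no variance trend, quantile normalization, TMM-like rescaling, testing all genes or those averaging 100 or more, and adding 0.1 or 10 instead of 1.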

Additional observations from a re-analysis of the deposited data

How the results depend on the processing

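The count of 1 called member stayed at 1 with robust empirical Bayes, with TMM-like rescaling, with all genes or only those averaging 100 or more, and with 0.1 or 10 added to the values. It was 0 after quantile normalization, where the log2 fold change of USP15 was 0.64 (adjusted p = 0.0546, limma), and 0 without the variance trend, where it was 0.64 (adjusted p = 0.653, limma). The cause was not tested. With 1 library left out, the count was 0 to 1 and the log2 fold change of USP15 was 0.58 to 0.74; fewer samples were then fitted. Over all genes tested, 19 were called, against 14 after quantile normalization, 15 with robust empirical Bayes and 0 without the variance trend. The count was 12 without NC replicate 2 or NC replicate 3 and 11 without KD replicate 1 or KD replicate 2. With 1 library left out, the median log2 fold change of the members was -0.020 to 0.030. The log2 ratios of USP15 to its paralogs and its share kept their direction in all alternatives run.

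The log2 fold change of USP22 was 0.065 without KD replicate 1 and 0.20 without KD replicate 3, against 0.13. Small differences changed sign. USP9X went to 0.0026 under TMM-like rescaling and USP29 to 0.026 with 10 added. With 1 library left out the log2 fold change ran from -0.024 to 0.10 for USP7, -0.031 to 0.23 for USP36, -0.026 to 0.17 for USP21, -0.22 to 0.038 for USP1, -0.020 to 0.14 for USP2, -0.064 to 0.092 for USP9X, -0.0014 to 0.12 for USP34, -0.11 to 0.099 for USP45, -0.085 to 0.043 for USP27X, -0.17 to 0.13 for USP8 and -0.10 to 0.062 for USP40. It ran from -0.048 to 0.17 for USP5, -0.080 to 0.070 for USP47, -0.016 to 0.16 for USP28, -0.21 to 0.20 for USP16, -0.098 to 0.013 for USP24, -0.17 to 0.049 for USP39, -0.29 to 0.053 for USP30, -0.15 to 0.48 for USP20 and -1.30 to 1.11 for USP29.

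After subtraction of the group means, same-numbered libraries correlated at 0.109, 0.111 and 0.087, and each library correlated best with its own number, a hint from the data and not the design. With the replicate number as a block, 1 member was called, USP15 (log2 fold change 0.64, adjusted p = 0.00905, limma), and 26 genes in all. Standard errors were largest for the members with a mean under 200, and the part of depth in this was not tested.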
